A study of Mus musculus with 10 samples.

Results

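Ribosomal protein genes encode the proteins of the cytosolic ribosome, and their transcripts were measured here in mouse liver hepatocytes by single-cell RNA sequencing at 4 times of day. A gene entry was counted as a ribosomal protein gene if its symbol starts with Rpl or Rps followed by a digit, or is Rplp0, Rplp1, Rplp2 or Rpsa, with names containing -ps and the Rps6k kinases left out. This rule found 87 of the 14812 gene entries, 50 with Rpl names, 34 with Rps names (Rpsa included) and 3 with Rplp names. Rps12, Rpl10 and Rpl27, which have near-identical copies among the entries, were kept apart from the other 84 and are described on their own. The 10 libraries were hepatocytes of C57BL/6 male mice aged 3 months, fed regular chow without restriction, taken at Zeitgeber time 0 (ZT0, lights on; 3 libraries, A to C), ZT6 (A and B), ZT12 (A to C) and ZT18 (A and B). All libraries shared the strain, sex, age, diet, ketamine and xylazine anaesthesia, collagenase perfusion of the liver, Percoll enrichment and the 10x Chromium 3′ v2 kit, and differed in time and, as described below, in the sample index of the library. The labels do not give the mouse behind each library, so p-values measure the spread between these libraries, which may be technical.

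Most ribosomal proteins are present in the same number of copies per ribosome. Their transcripts are among the most abundant in any growing or secreting cell. Most vertebrate ribosomal protein mRNAs begin with a C followed by a run of pyrimidines, the 5′ terminal oligopyrimidine (TOP) motif, through which TOR signalling and the RNA-binding protein Larp1 set their translation. Hepatocytes lie along a lobule axis, with periportal cells receiving oxygen- and nutrient-rich blood and pericentral cells receiving what has flowed past them, and in liver the making of ribosomes has also been tied to feeding and to the daily clock.

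The libraries held 710 to 2860 cells each (18378 in all) and 1454623 to 7144803 unique molecular identifiers (UMIs, one per captured transcript), with medians of 1588 to 2662 UMIs per cell. The 84 genes took 73625 to 600975 UMIs per library. Levels are given as UMIs of a gene per 1000000 UMIs of the library (CPM). Those of 7 hepatocyte markers summed to 42114 to 84396 CPM, while 7 endothelial markers summed to 2.75 to 15.5, with 1 of the 7 at 0 throughout, 8 Kupffer and macrophage markers to 0 to 6.11, with 5 at 0, and 6 lymphocyte markers to 0 to 0.609, with 4 at 0. Erythroid transcripts of 4 genes summed to 72.2 to 300.2 CPM, highest in 1 ZT18 library, and 4 cholangiocyte markers to 0.773 to 32.5. The number in the 10x sample index name of a library, called the index column below, was 3 for ZT0 A and ZT12 A, 5 for ZT0 C and ZT12 C, 7 for ZT0 B, ZT12 B and both ZT6 libraries, and 4 for both ZT18 libraries. No library of another time had index column 4, so ZT18 and that column cannot be told apart. The deposited tables number their cells, so cell barcodes shared between libraries could not be counted, and 0 of the cells had a profile identical to another's.

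Since the assay counts 3′ ends with 1 UMI per molecule, CPM compares genes without a correction for transcript length. The highest mean over the 10 libraries was that of Rpl41, whose protein of 25 residues is the smallest of the ribosome. It measured 3576, 6546 and 2781 CPM in ZT0 A, B and C, 6016 and 5543 in ZT6 A and B, 2931, 6256 and 2686 in ZT12 A, B and C, and 4192 and 4746 in ZT18 A and B, with a mean of 4527. The 4 libraries of index column 7 were the highest and the groups of libraries by time overlapped. Rpl37a followed with a mean of 3353 CPM, Rpl37 with 2326, Rps29 with 2304 and Rpl39 with 1759, all of them short, basic proteins that bind rRNA. At the low end of the genes tested stood Rps19bp1 with a mean of 30.2 CPM, a gene that carries the name but encodes a partner of the Rps19 protein and no subunit, then Rpl23a with 44.4, Rpl7l1 with 48.0, an Rpl7-like gene, and Rpl6l with 55.6, which GENCODE M21 annotates as a processed pseudogene; Rps12, kept apart, was lower still at 26.5. Entries named as copies of Rpl23a and Rps12 held more UMIs than these genes. Rpl23a-ps3 had a mean of 80.8 CPM, and Rps12-ps3 was at 251 to 262 CPM at ZT18 and 52.9 to 105 elsewhere. How reads shared by copies were counted is not given in the sources used here. The levels of genes with such copies may therefore not compare with those of the rest. Of the 84 genes, 81 reached the filter of 3 CPM on average. Rpl3l, known from heart and skeletal muscle, Rpl10l and Rpl39l, both known from testis, did not, at no more than 0.349, 2.43 and 0.175 CPM in any library and with 4, 18 and 2 UMIs in all. Rpl10l was highest in ZT18 B, where a count of 0 would allow up to 0.808 CPM (3 counts, for counting error only).

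The starts of 66 of the 87 genes were in RefSeq's table for the mouse build GRCm38.p6, with 78 start sites. The 30 bases around a start are shown for genes to which the results below return, the first base transcribed being the 16th, and capitals mark a run that begins with C at that base and goes on with at least 4 bases that are each C or T. Rpl35, Rps15a, Rplp2, Rps27rt and Rps10 hold such a run, at chr2:39005117-39005146 (minus strand), chr7:118116133-118116162 (minus), chr7:141447636-141447665 (plus), chr9:114982725-114982754 (minus) and chr17:27635230-27635259 (minus). The start of Rpl41 at chr10:128549154-128549183 (minus), of Rpl36al at chr12:69184053-69184082 (minus) and of Rpsa at chr9:120127751-120127780 (plus) have none in this window.
Rpl35: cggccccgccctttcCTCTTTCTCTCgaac
Rps15a: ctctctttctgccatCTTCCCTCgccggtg
Rplp2: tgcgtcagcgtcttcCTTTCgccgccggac
Rps27rt: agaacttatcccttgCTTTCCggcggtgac
Rps10: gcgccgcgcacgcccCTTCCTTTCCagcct
Rpl41: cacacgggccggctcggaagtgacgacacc
Rpl36al: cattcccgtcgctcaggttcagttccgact
Rpsa: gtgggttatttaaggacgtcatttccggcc

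A run at the annotated start base was found in 14 of the 66 genes (21.2%) and in 3.01% of all 27025 genes of the table. On the other strand it was found in 2 of the 66 (3.03%) and in 4.07% of all genes. With the run allowed to begin up to 10 bases either side of the start, 40 of the 66 (60.6%) had it against 34.4% of all genes, and 16 (24.2%) against 38.5% on the other strand. Of the 78 start sites, 27 were at a GENCODE transcript start of the gene and 49 within 10 bases of one, so the annotated base is not always the one used, and a missing run says only that these letters are not in this window.

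Along the lobule, ribosomal protein transcripts were higher in pericentral than in periportal cells. The cells of each library were ordered by 8 periportal landmarks (Ass1, Asl, Cyp2f2, Hal, Ftcd, Pigr, Ctsc and Hsd17b13) and 8 pericentral ones (Cyp1a2, Cyp2e1, Rgn, Oat, Aldh1a1, Gulo, Lect2 and Mgst1), none of them a ribosomal protein gene. The order was cut into 3 parts of equal cell number, and the outer parts, called pericentral and periportal cells, were compared. The 84 genes took 5.58% of UMIs in the lowest library, 8.80% in the median and 10.7% in the highest in pericentral cells (mean 8.14% ± 1.90, SD, n = 10), and 4.60%, 6.15% and 7.29% in periportal cells (6.09% ± 1.09). The pericentral share was the higher in each of the 10 libraries, by 1.18 to 1.49 times (mean 1.33 ± 0.12), although the ranges over libraries overlap. Between the zones 52 of 81 genes were lower in periportal cells and 1, Rpsa, was higher (edgeR's quasi-likelihood test with library as a block, adjusted p under 0.05 by the method of Benjamini and Hochberg), where 12.7% of all genes tested, the landmarks left out, were called lower and 11.9% higher (24.6% in either direction). Abundant genes were called more often: with a filter of 20 CPM, 815 of 4257 other genes were lower and 798 higher. Of the 81 genes 52 were lower and 1 higher with that filter. The median log2 difference, periportal minus pericentral, was -0.25 over the 81 genes and -0.00 over the 8823 other genes. On TMM-scaled CPM, 32 of the 81 genes were lower in periportal cells in all 10 libraries, where 5.6% of all genes tested were. Scaling by library size alone, in place of edgeR's TMM, moved the median of the other genes to -0.10 and that of the ribosomal protein genes to -0.35, with 65 called lower and 0 higher.

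**Figure D1:**
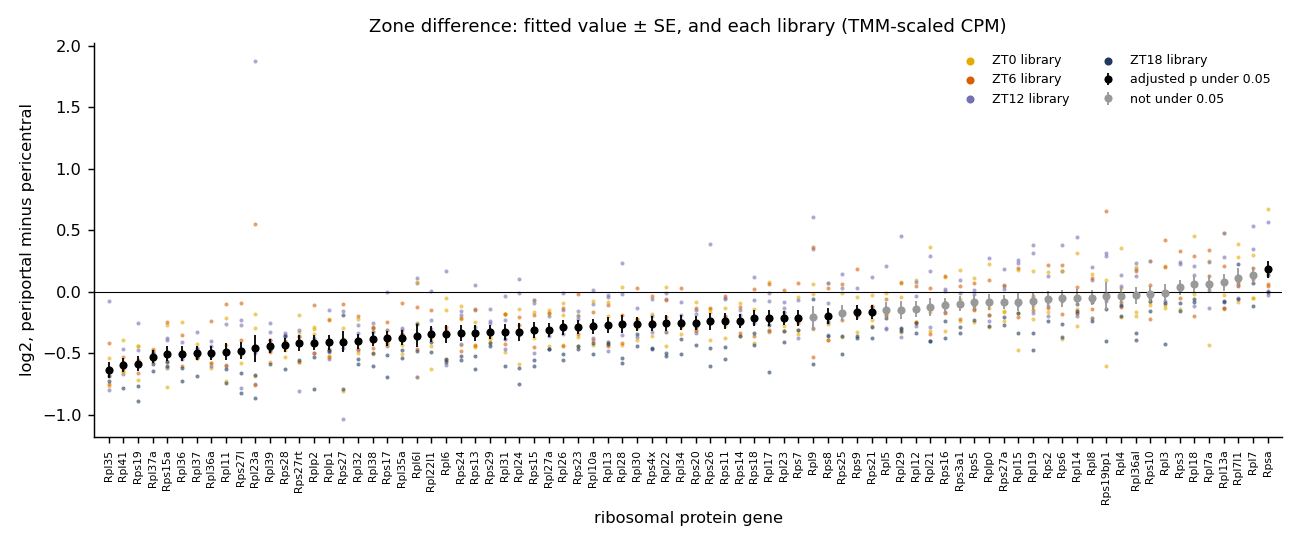
Log2 difference between periportal and pericentral cells for 80 of the 81 ribosomal protein genes tested, in order of size: large points are fitted values with their standard errors (black where the adjusted p is under 0.05, grey otherwise) and small points are the 10 libraries, coloured by time. Fitted values run from -0.64 for Rpl35 to 0.18 for Rpsa, and of the 81 genes 32 lie below 0 in all 10 libraries.

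The share of UMIs on mitochondrially encoded genes moved the other way, at 15.9% ± 2.94 in pericentral and 19.5% ± 3.30 in periportal cells. With those entries left out of the total, the pericentral share of ribosomal protein UMIs was still 1.13 to 1.38 times the periportal share. In an alternative chosen after seeing the data, only cells in the middle range of their library for mitochondrial share (25th to 75th percentile) were kept. The ratio was then 1.06 to 1.29 (mean 1.18 ± 0.07), with 35 genes called lower and 0 higher. Calls fell among the other genes too, with 629 of 8757 lower and 573 higher, against 1081 and 1059 of 8823 over all cells. The part of mitochondrial share in the rest of the difference was not tested. Median UMIs per cell were close between the zones, at 2078 ± 537.4 in pericentral and 2089 ± 424.3 in periportal cells.

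In 8 layers of equal cell number, from layer 1 (most pericentral) to layer 8 (most periportal), the share was 8.33% ± 2.02 in layer 1 and 5.90% ± 1.08 in layer 8 (SD, n = 10). Layer 1 was 1.11 to 1.73 times layer 8 and above it in 10 of 10 libraries, also with mitochondrial entries left out of the total (1.09 to 1.57 times). The highest share was in layer 1 in 7 libraries and in layers 1 to 3 in all 10, and the lowest in layer 7 or 8 in all 10.

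**Figure D2:**
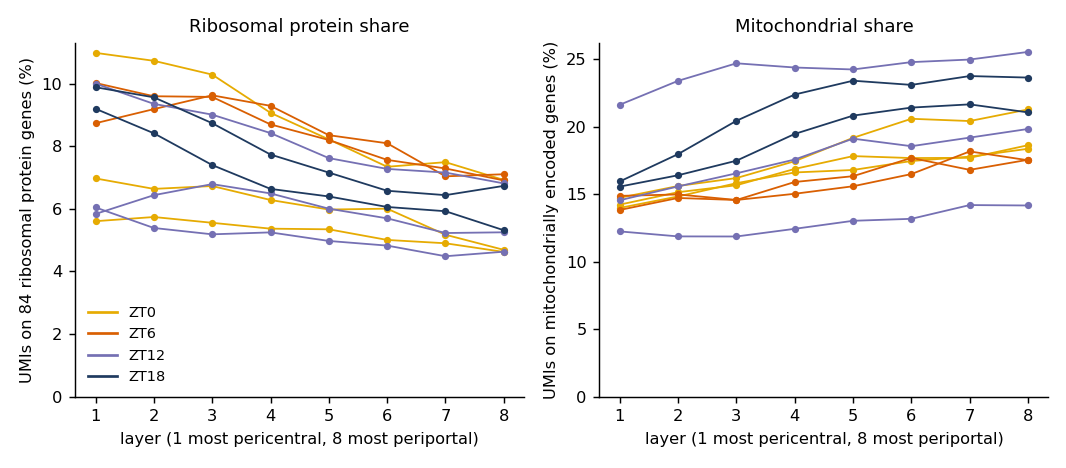
Share of UMIs (%) on the 84 ribosomal protein genes (left) and on mitochondrially encoded genes (right) in 8 layers from pericentral (1) to periportal (8), with 1 line per library coloured by time. Layer 1 lies above layer 8 for the ribosomal protein share, and layer 8 above layer 1 for the mitochondrial share, in each of the 10 libraries.

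Genes of both subunits were called. Classed by name, 28 of 45 genes with Rpl names, Rpl6l and Rpl7l1 among them, were lower in periportal cells (median -0.26). Of the genes with Rps names, Rpsa and Rps19bp1 among them, 22 of 33 were lower (median -0.24) and Rpsa was higher. Of the stalk genes, whose proteins recruit the translation factors to the large subunit, Rplp1 and Rplp2 fell by 0.41 each on the log2 scale and Rplp0, the base of the stalk, differed by -0.09 (adjusted p = 0.39).

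The steepest gene was Rpl35, a protein beside the exit of the nascent chain. Pericentral cells held 119 CPM of it in the lowest library, 411 in the median and 576 in the highest, and periportal cells 64.7, 242 and 323. Its level was lower in periportal cells in all 10 libraries, though the 2 ranges overlap, by -0.64 ± 0.07 (log2, SE; adjusted p = 1.8e-09). Rpl41, with no pyrimidine run at its RefSeq start, measured 3101, 5911 and 8382 CPM in pericentral and 1946, 3486 and 4949 CPM in periportal cells (-0.60 ± 0.06, adjusted p = 1.4e-10). Its mean was lower at each successive layer, from 6106 ± 2100 CPM in layer 1 to 3404 ± 1126 in layer 8. Rps19, the gene most often mutated in Diamond-Blackfan anaemia, measured 1041, 1937 and 2324 CPM in pericentral and 726, 1105 and 1285 CPM in periportal cells (-0.59 ± 0.06, adjusted p = 2.7e-09). All 3 genes were thus lower in periportal cells of every library.

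Further genes by size were Rpl37a (-0.53), Rps15a (-0.51), Rpl36, Rpl37 and Rpl36a (each -0.50) and Rpl11 (-0.49), a protein of the 5S particle that also binds Mdm2, each with an adjusted p of 5.3e-07 or less and lower in all 10 libraries. At the other end, Rpsa, which is both a small-subunit protein and the laminin receptor, was the 1 gene called higher in periportal cells. Its level was 624, 849 and 1130 CPM in pericentral and 770, 883 and 1145 CPM in periportal cells, and higher in 8 of 10 libraries (0.18 ± 0.07, adjusted p = 0.049). It was highest in the middle of the lobule, at 964 ± 124 CPM in layer 5 against 839 ± 190 in layer 1 and 904 ± 106 in layer 8. The call was lost without any 1 of ZT0 A, ZT0 B, ZT0 C, ZT6 A, ZT12 C and ZT18 B (adjusted p = 0.0633 to 0.172), with DESeq2 (0.0989), with scaling by library size (0.394) and over cells of at least 3000 UMIs (0.939).

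Genes that did not pass included Rpl3 (-0.01, adjusted p = 0.96), which lines the peptidyl transferase centre, Rpl4 (-0.03, 0.77), Rps3 (0.04, 0.75), at the mRNA entry, Rps10 (-0.02, 0.88), which holds a pyrimidine run at its start, Rpl13a (0.08, 0.47) and Rpl7 (0.13, 0.14). Their layer means were flatter: Rpl3 ranged from 371 to 416 CPM over the 8 layers and Rpl7 from 505 to 583. Rps19bp1, the partner of Rps19, differed by -0.03 (adjusted p = 0.88).

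Genes with paralogue-like names mostly lay close to their namesake. Rps27, Rps27l and Rps27rt differed by -0.41, -0.48 and -0.42, Rpl22 and Rpl22l1 by -0.26 and -0.34, and Rpl6 and Rpl6l by -0.34 and -0.36, all called. Rpl7l1 differed by 0.11 (adjusted p = 0.36) beside 0.13 for Rpl7. The exception was the pair Rpl36a and Rpl36al, which have the same coding length of 321 nt. Rpl36a measured 677, 1099 and 1483 CPM in pericentral and 476, 752 and 903 in periportal cells (-0.50, adjusted p = 1.9e-08), lower in 10 of 10 libraries. Rpl36al measured 423, 628 and 720 in pericentral and 446, 541 and 672 in periportal cells (-0.03 ± 0.07, adjusted p = 0.82), lower in 5 of 10. How reads shared by near-identical copies were counted is not given in the sources used here, and the difference between the 2 genes was not tested.

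Genes with short coding sequences had the larger differences. Among the 11 genes of at most 300 nt all 11 were called lower in periportal cells, with a median of -0.44. Of the 28 genes over 300 to 450 nt 24 were called lower (median -0.31), of the 19 over 450 to 600 nt 11 (-0.21), of the 19 over 600 to 900 nt 5, with Rpsa higher (-0.06), and of the 3 longer genes, Rpl3, Rpl4 and Rplp0, 0 (-0.03). Over the 80 genes with a coding length the zone difference had a Spearman rho of 0.67 and a Pearson r of 0.65 with it. This correlation is across genes, which share libraries and are not independent replicates. In single libraries rho ranged from 0.350 in ZT12 B to 0.711 in ZT0 C. Within the genes with Rpl names it was 0.679 (44 genes) and within those with Rps names 0.655 (33). Over cells in the middle range of mitochondrial share it was 0.729. Shorter genes were also the more abundant (rho of -0.42 between length and mean CPM), and the zone difference had a rho of -0.42 with mean CPM.

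**Figure D3:**
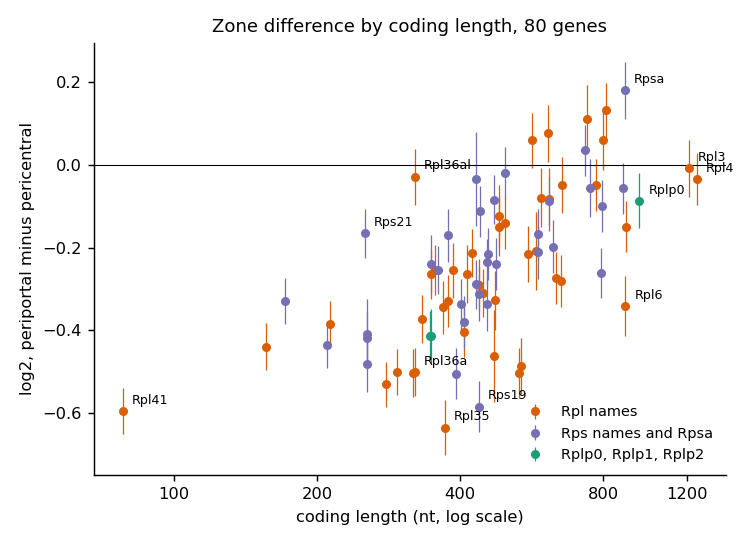
Log2 difference between periportal and pericentral cells (fitted value ± SE) against coding length (nt, log axis) for 80 ribosomal protein genes, coloured by name class. The 11 genes of at most 300 nt lie between -0.60 and -0.17, and the 3 genes over 900 nt between -0.09 and -0.01.

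Other genes showed the same ordering at a smaller size. Their median zone difference was -0.12 for 188 genes of at most 300 nt, -0.10 over 300 to 450 nt, -0.04 over 450 to 600 nt, -0.02 over 600 to 900 nt and 0.02 above, with a rho of 0.112 over 8418 genes and 0.247 over the 505 of at least 200 CPM. Among those of at least 200 CPM, 13 of the 43 of at most 300 nt were called lower and 5 higher. Of the 282 over 900 nt 63 were called lower and 138 higher. The summed share of the short ribosomal protein genes in pericentral cells was 1.49 ± 0.11 times the periportal share (n = 10; 1.30 to 1.64). For the genes over 600 nt it was 1.14 ± 0.12 times, from 0.94 in ZT12 C to 1.30 in ZT0 B. These are plain shares of UMIs with no TMM scaling. Genes with a pyrimidine run at the start base had a median zone difference of -0.32 (14 genes) and those without -0.25 (46). With the run allowed within 10 bases the medians were -0.27 (36) and -0.21 (24).

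Time of day was set beside these zone values, since the study sampled both. Summed over the 84 genes the share of UMIs was 5.24%, 8.93% and 6.07% in ZT0 A, B and C, 8.50% and 8.39% in ZT6 A and B, 5.06%, 8.18% and 5.97% in ZT12 A, B and C, and 6.82% and 7.79% in ZT18 A and B. Means were 6.75% ± 1.94 (SD, n = 3), 8.44% ± 0.0754 (n = 2), 6.41% ± 1.61 (n = 3) and 7.30% ± 0.686 (n = 2). The ranges of ZT0 and ZT12 covered those of ZT18, and that of ZT0 covered ZT6. The same values fell into narrow bands by index column: 5.06% to 5.24% in column 3, 5.97% to 6.07% in column 5, 8.18% to 8.93% in column 7 and 6.82% to 7.79% in column 4. Both ZT6 libraries were of column 7.

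**Figure D4:**
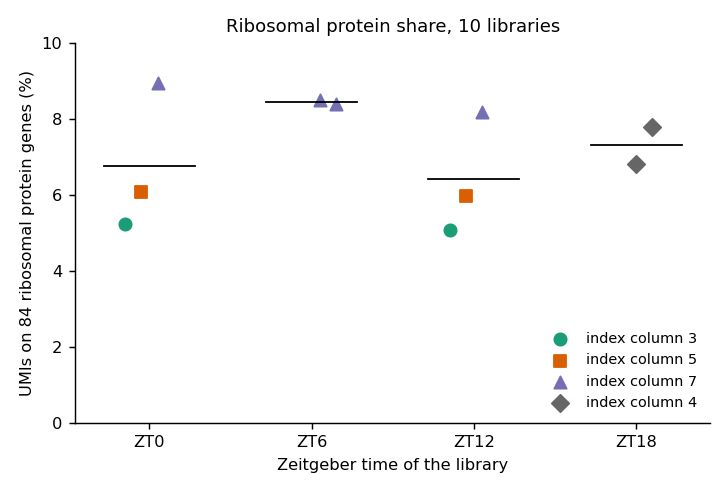
Share of UMIs (%) on the 84 ribosomal protein genes in each library by time, with colour and shape for the index column of the library and a line for the mean of each time. Libraries of index column 7 lie at 8.18% to 8.93% at ZT0, ZT6 and ZT12 alike, and those of columns 3 and 5 at 5.06% to 6.07%.

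The pattern by index column ran through most of the genes. All 4 libraries of column 7 were above all 4 of columns 3 and 5 for 60 of the 81 genes in CPM and below them for 0, where 4.56% of all genes tested were above and 6.04% below. On TMM-scaled CPM it was 62 genes, beside 6.48% of all genes. Examples are Rpl36, at 993 to 1211 CPM in columns 3 and 5 and 2177 to 2290 in column 7, and Rpl24, at 618 to 771 and 1041 to 1178. A test of the index column with time as a term was chosen after seeing the data and run over the ZT0 and ZT12 libraries. In it 71 of the 81 genes had an unadjusted p under 0.05, and so had 1735 of the 8802 other genes. It called 9 of 81 genes (1.79% of all genes tested, edgeR). The count was 0 without ZT0 C or without ZT12 C, 58 without ZT0 A and 67 without ZT12 A, so the number called rests on single libraries. Some of the genes called differed most in column 5: Rps27rt was at 418 and 474 CPM in column 5 and 86.6 to 144 in columns 3 and 7 (1.84 between the highest and lowest column, log2, adjusted p = 0.0115), Rpl29 at 115 and 124 in column 5 and 251 to 340 in columns 3 and 7 (1.55, 0.0144), and Rps28 at 1833 and 2068 in column 5 and 530 and 625.2 in column 3 (1.57, 0.0413). Rpl15 (1.33), Rpl6 and Rpl23a were likewise highest in column 5, and Rps2 (1.37), as Rpl29, lowest there and highest in column 7. Rpl41 (1.37) and Rpl36 (1.05) were also highest in column 7.

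**Figure D5:**
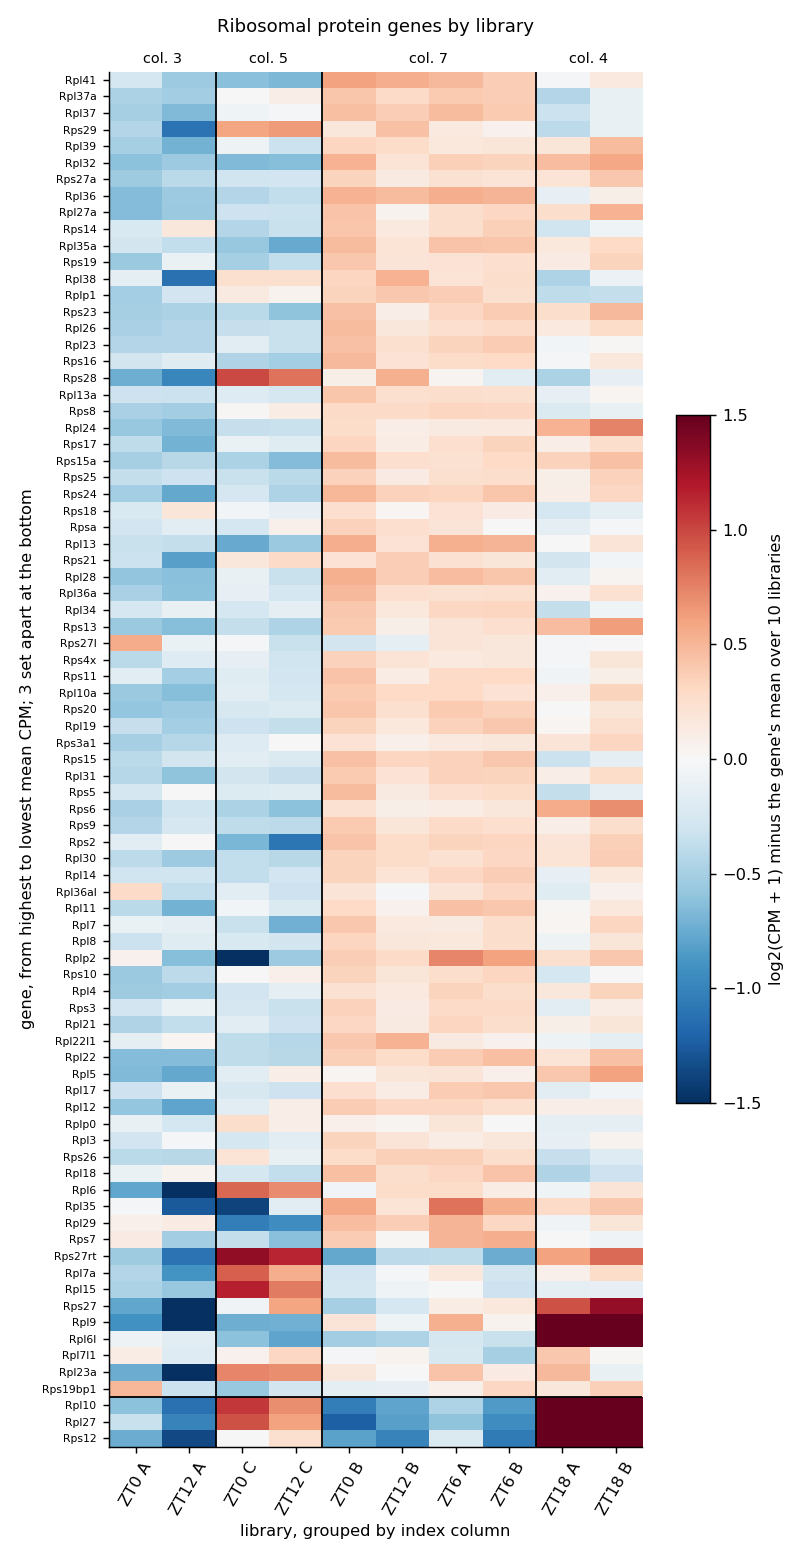
Log2(CPM + 1) of tested ribosomal protein genes (80 of the 81, and the 3 kept apart) minus its mean over the 10 libraries (red above, blue below), with libraries grouped by index column and genes from highest to lowest mean CPM, and Rps12, Rpl10 and Rpl27 at the bottom. For 60 of the 81 genes the 4 libraries of column 7 exceed those of columns 3 and 5, and Rps27, Rpl9, Rpl6l and the bottom 3 genes are highest in both ZT18 libraries.

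Few of the genes differed by time, and those that did were highest at ZT18. Among the 4 times 3 of 81 genes differed, Rpl6l, Rpl9 and Rps27, where 6.58% of all genes tested were called. The 3 genes kept apart, described below, were all called in this test as well. DESeq2 called 5, adding Rpl24 and Rps6. Between ZT12 and ZT0, with 3 libraries each, 0 of 81 were called by edgeR (3.44% of all genes), with 1 at an unadjusted p under 0.05, and 0 by DESeq2, with 2 (unadjusted). The median difference was -0.22, but single libraries decided it: it was 0.06 without ZT0 B, -0.46 without ZT12 B, -0.10 without ZT12 A, -0.12 without ZT12 C and -0.33 without ZT0 C. With scaling by library size it was -0.08. Between ZT18 and ZT6 1 gene, Rpl6l, was called, as higher at ZT18 (3.79% of all genes in either direction and 2.35% higher), and with the library letter as a block 4 were, Rpl6l, Rpl9, Rps27 and Rps27rt. The gain rests on the letters, which were shown to pair libraries between ZT0 and ZT12 only, where they match the index columns, and have no shown meaning between ZT6 and ZT18. A 24-h rhythm was called for 1 gene, again Rpl6l (5.14% of all genes).

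Within an index column, the median difference between ZT12 and ZT0 over the 81 genes was -0.03 in column 3, -0.15 in column 7 and -0.05 in column 5, on single pairs of libraries with no test. Over all genes tested the same medians were 0.23, 0.06 and 0.13. ZT6 minus the mean of ZT0 and ZT12 within column 7 had a median of 0.02 over the 81 genes and 0.04 over all. Libraries of the same time but different columns were farther apart: ZT0 B exceeded ZT0 A by a median of 0.73 and ZT0 C by 0.61, and ZT12 B exceeded ZT12 A by 0.60 and ZT12 C by 0.45.

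Rpl6l measured 42.8, 31.2 and 29.2 CPM in ZT0 A, B and C, 37.4 and 35.5 in ZT6 A and B, 39.9, 32.5 and 25.6 in ZT12 A, B and C, and 137 and 146 in ZT18 A and B. Both ZT18 libraries stood well above the other 8. It rose by 2.03 ± 0.29 (log2, SE) from ZT6 to ZT18 (adjusted p = 0.00177), a call lost without ZT6 A (0.0544), and its 24-h amplitude was 1.05 with a peak at ZT 18.3 (adjusted p = 0.044). The rhythm call was lost without any 1 of ZT0 A, ZT6 B, ZT12 A, ZT12 B, ZT18 A and ZT18 B (0.0504 to 0.202).

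Rpl9, of the large subunit, measured 24.1, 52.9 and 27.5 CPM at ZT0, 67.4 and 47.9 at ZT6, 15.1, 44.1 and 27.6 at ZT12, and 138 and 147 at ZT18 (any difference 2.35 between the highest and lowest time, adjusted p = 0.00441). Rps27 measured 32.1, 39.1 and 53.7 at ZT0, 60.5 and 62.2 at ZT6, 18.6, 46.7 and 84.8 at ZT12, and 109 and 141 at ZT18 (1.59, adjusted p = 0.0404). For both genes the 2 ZT18 libraries were above the other 8. The call for Rps27 was lost without any 1 of ZT0 A, ZT0 B, ZT6 A, ZT6 B, ZT12 B, ZT18 A and ZT18 B (0.0548 to 0.328). Without both ZT18 libraries, an alternative chosen after seeing the data, 0 of 81 genes differed among the other times, with 1 at an unadjusted p under 0.05.

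Rpl6l is itself annotated as a copy, and Rpl9 has entries named as its copies. Rps27 has the genes of like name Rps27l and Rps27rt, each with the same coding length of 255 nt. Rps27rt was at 287 and 341 CPM at ZT18, below its 418 and 474 in column 5. Rps27l was at 780 and 790 at ZT18, within its range at the other times. The 3 genes kept apart for their near-identical copies were highest at ZT18 as well. Rps12, of the small subunit, measured 8.90, 8.47 and 15.5 CPM at ZT0, 13.2 and 6.95 at ZT6, 5.50, 7.28 and 18.6 at ZT12, and 91.2 and 89.7 at ZT18 (3.20 ± 0.40 from ZT6 to ZT18, adjusted p = 0.000644). Rpl10, which joins the large subunit last, measured 35.8, 26.3 and 116 at ZT0, 39.6 and 30.1 at ZT6, 24.7, 31.4 and 89.9 at ZT12, and 159 and 171 at ZT18 (2.32 ± 0.60, adjusted p = 0.0476). Rpl27 measured 33.5, 17.5 and 82.7 at ZT0, 27.4 and 21.6 at ZT6, 20.6, 23.7 and 64.8 at ZT12, and 133 and 144 at ZT18 (2.57 ± 0.57, adjusted p = 0.0259). In all 3 genes the ZT18 libraries were highest and did not overlap with the rest, and for Rpl10 and Rpl27 the libraries of column 5, ZT0 C and ZT12 C, came next.

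The call between ZT18 and ZT6 was lost for Rpl10 without any 1 of ZT6 A, ZT6 B, ZT12 A, ZT18 A and ZT18 B (0.0569 to 0.302) and for Rpl27 without any 1 of ZT6 A, ZT6 B, ZT18 A and ZT18 B (0.105 to 0.207). A 24-h rhythm was called for Rps12 (amplitude 1.78, adjusted p = 0.0154, lost without ZT18 A or ZT18 B, 0.0688 and 0.0744) and Rpl27 (1.33, adjusted p = 0.0309, lost without ZT6 A, ZT6 B, ZT18 A or ZT18 B, 0.051 to 0.139).

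Of the 16 entries with -ps in the name, which are copies of ribosomal protein genes and not members, 14 had both ZT18 libraries above the other 8, and 12 of the 13 tested were called higher at ZT18 than at ZT6 (median 2.68). Rpl9-ps6 measured 18.9 to 46.8 CPM in the other libraries and 227 and 231 at ZT18, Rps12-ps3 52.9 to 105 and 251 to 262, Rpl27-ps3 31.8 to 72.3 and 207 to 213, and Rpl10-ps3 32.8 to 69.1 and 261 to 306. Together they took 0.178% and 0.187% of UMIs in the ZT18 libraries and 0.0363% to 0.0652% elsewhere. Of the 81 genes 7 had both ZT18 libraries above the other 8 (Rpl24, Rpl5, Rpl6l, Rpl9, Rps13, Rps27 and Rps6), beside 6.14% of all genes tested. Among them Rps6, the phosphorylated target of S6 kinase, measured 489.6, 801.7 and 492.8 CPM at ZT0, 741 and 770 at ZT6, 556, 728 and 446 at ZT12, and 1008 and 1113 at ZT18. How the counting treated copies at ZT18 and at the other times is not given in the sources used here, and its part in these values was not tested.

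Time courses did not differ between the zones for any of the 81 genes at the threshold: a zone-dependent rhythm was called for 0 by edgeR (0.0337% of all genes tested other than the 16 landmarks), with 5 at an unadjusted p under 0.05, and for 0 by DESeq2, with 0 unadjusted. For Rpl35 the mean difference between the zones was -0.66 in the ZT0 libraries, -0.59 at ZT6, -0.50 at ZT12 and -0.70 at ZT18, and for Rpl41 -0.56, -0.58, -0.57 and -0.70. Other genes were less even over the times, though not called. In the same order Rpl24 differed by -0.35, -0.24, -0.09 and -0.68, and Rps6 by -0.09, 0.02, 0.16 and -0.31.

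Within libraries, genes with Rpl and Rps names moved together from cell to cell. The shares of transcripts with Rpl or Rplp names and of those with Rps names had a Pearson r of 0.669 to 0.873 across the cells of a library. The total share had an r of -0.578 to -0.778 with the mitochondrial share and of -0.223 to 0.290 with the log of the cell's UMIs. These are descriptions over 710 to 2860 cells of 1 library each, and shares of 1 total are bound to each other.

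In the wider translation machinery a smaller share of each list was called between the zones than of the 81 genes. Over all genes tested 12.7% were called lower in periportal cells and 11.9% higher (24.6% in either direction). Some ribosomal proteins are made as a fusion to ubiquitin or a like protein and released by cleavage. Of these Rps27a, counted among the 81, differed by -0.08 between the zones (adjusted p = 0.34), and Fau, the source of eS30, by -0.19 (0.12). Of 8 elongation factor genes 1 was called, Eefsec, which delivers selenocysteine tRNA, at 14.7 and 21.1 CPM (0.65, higher in periportal cells). Of 13 other mRNAs known to carry a TOP motif 1 was called, Gnb2l1 (now Rack1), a scaffold on the small subunit, at 406 and 432 CPM (0.19, adjusted p = 0.020). Of 36 initiation factors 6 were lower in periportal cells and 0 higher (median -0.05), led by the helicase Eif4a2 (-0.37), the eIF2 subunit gene Eif2s2 (-0.35) and Eif1a (-0.32).

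Of 71 ribosome biogenesis genes 3 were called, all lower in periportal cells, the nucleolar chaperone Nolc1 (-0.56), Rrs1 (-0.37) and the helicase Ddx18 (-0.33), with a median of 0.01, and DESeq2 called 1. Of 12 genes of RNA polymerase I and its factors 0 were called by edgeR and by DESeq2, with 1 and 0 at an unadjusted p under 0.05. Of 25 genes of TOR signalling and TOP mRNA control 2 were lower, the S6 kinase gene Rps6kb1 (-0.30) and the TOR activator Rheb (-0.29), and 2 higher, among them Larp1 (0.20), while DESeq2 called 1 of the 25. The separate ribosome of the mitochondrion had 15 of 76 genes called, 13 lower, such as Mrps5 (-0.42) and Mrpl33 (-0.35), and 2 higher, with Mrps31 (0.47), and a median of -0.05. DESeq2 called 7 of the 76.

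Few genes of these lists differed by time. Fau, whose FUBI fusion yields eS30, was higher at ZT18 than at ZT6 by 2.06 ± 0.36 (adjusted p = 0.0079). Of the biogenesis genes Rrp12 was higher by 1.47 (0.044) in the same comparison with edgeR. DESeq2 called 0 of the 72 there, with 10 at an unadjusted p under 0.05. In this comparison ZT18 cannot be told apart from index column 4. Utp14a differed among the 4 times (1.44, 0.037), and so did Myc, a transcription factor that drives ribosome production (2.68, 0.013). In the test of any difference among the times edgeR called 0 of 8 elongation factors, 0 of 13 other TOP mRNAs, 0 of 36 initiation factors, 0 of 12 RNA polymerase I genes, 0 of 4 snoRNA host genes and 0 of 76 mitochondrial ribosomal proteins. At an unadjusted p under 0.05 these were 0, 2, 3, 4, 3 and 10 genes, and DESeq2 called 1 of the other TOP mRNAs and 0 of the rest.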

How the data were processed

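Hepatocytes of 10 libraries were profiled with the 10x Chromium 3′ v2 kit, per the labels. The authors deposited 1 table of UMI counts per library, with genes in rows and numbered cells in columns, whole numbers and not normalized. The submitters' processing notes name Cell Ranger and the builds hg19 and mm10 without saying which step used which. The aligner, annotation, cell filters and any removal of doublets are not given in the sources used here, and no cell was left out here. Counts were summed per library, or per library over the outer parts of the landmark order of cells, cut in 3, and tested in R 4.3.3 with edgeR 4.0.16 (quasi-likelihood test, TMM, mean of at least 3 CPM, Benjamini-Hochberg adjustment over all genes tested, threshold 0.05). Per-library zone differences are on log2(TMM-scaled CPM + 1). Results of a few genes are not reported here. Alternatives were DESeq2 1.42.0, other scalings, filters, cell orders and cells, and each library left out. The genes, lists and named genes were chosen with earlier results of these data known. Named were, per test, the called genes (at most 10 per direction by size), the 5 highest and 5 lowest by level, the genes kept apart, paralogue-like names with their namesakes, Rps19bp1, and 3 called genes per other list and test. Genes of the index-column test other than these and examples of the pattern by column or time were named after their values were seen. Library letters were taken to pair ZT0 and ZT12, since deviations from the time mean had r = 0.289, 0.514 and 0.626 between libraries of the same letter and -0.112 to -0.416 otherwise (4341 genes of at least 20 CPM). Odd- and even-numbered landmarks gave cell scores with r of 0.683 to 0.847 per library. Coding lengths come from GENCODE M21, in which all 87 genes were found by symbol. The share of UMIs on the 84 genes had exact 95% binomial intervals no wider than those of the smallest library, 5.03% to 5.10%, which cover counting error only. The tests were tried on simulated data first.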

Additional observations from a re-analysis of the deposited data

Results flagged for a closer look

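Zone differences of 18 genes named in the report were examined for a library far from the other 9, a check that flags about 1 group in 20 by chance. It picked out 1: for Rpl35 the periportal minus pericentral difference was -0.08 (log2) in ZT12 A and -0.42 to -0.80 in the other 9 libraries. That library had 55 Rpl35 UMIs of 459597 in pericentral and 60 of 569816 in periportal cells, and it was the smallest of the 10.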

How the results depend on the processing

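The count of genes differing between the zones was 53 and ranged from 47 to 55 with a library left out. It was 35 over cells in the middle range of mitochondrial share, where the ratio of shares was 1.184 and fewer of the other genes were called as well. Without both ZT18 libraries, an alternative chosen after seeing the data, 42 genes differed between the zones. Of the other genes 957 of 8743 were then called lower and 932 higher, against 1081 and 1059 of 8823 with all libraries. The count differing among the 4 times was 3 (2 to 3 with a library left out), 5 with DESeq2 and 0 without both ZT18 libraries or with index column as a block and without ZT18. That last fit leaves ZT18 out and so cannot speak to a difference at that time. Among the times it keeps, Rpl27 (0.3541, adjusted p = 0.601) and Rpl10 (0.3902, 0.475) were not called. Genes with a rhythm numbered 1 (0 to 1 with a library left out), 2 with no filter and 0 with a filter of 20 CPM, with mitochondrial, Mup and pseudogene entries left out (which removes Rpl6l), or without the 5% of cells with the most UMIs. Between ZT18 and ZT6 the count was 1 (0 to 2 with a library left out; 0 without ZT6 A), 2 with DESeq2 or no filter, 0 with those entries left out and 4 with the replicate block. The block changed no other count past 1.5 times: 1 gene had a rhythm, 4 differed among the times, 0 between ZT12 and ZT0 and 0 had a zone-dependent rhythm. The index-column test, chosen after seeing the data, called 9 genes, 15 by library size, 5 with DESeq2 size factors, 2 at 20 CPM, 44 with no filter, 30 with ZT6 and 0 to 67 with a library left out. The share at ZT6 was 8.442%, 10.04% without mitochondrial entries in the total, 8.581% without Mup and pseudogene entries and 8.564% without the deepest cells, and at ZT18 9.171% without mitochondrial entries against 7.302%. Where a value moved and no cause is named, the cause was not tested. Index column as a block was not run for the rhythm or for ZT18 against ZT6. Zone results of single named genes kept their side of the threshold in 414 of 431 refits, and the other 17 were of Rpsa (13), Rpl6l (3) and Rpl22 (1). Genes with few UMIs per zone, such as Rpl23a in ZT12 A (2 and 10), are limited by depth.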
